A study of Homo sapiens with 24 samples.

Results

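The mesenchymal and contractile effector genes described here were a fixed set of 10 genes: VIM, FN1, ACTA2, TAGLN, TPM1, CNN1, MYL9, CALD1, SPARC and POSTN, of 19821 coding genes in the annotation. They form a set by name, for their roles, and no threshold on a measured value defines it. For each gene the peaks of 3 histone marks were taken within 5 kb of every coding transcription start site (TSS), and H3K27ac peaks were also taken out to 50 kb. The cells were PANC-1, an established human pancreatic ductal carcinoma line, so every group is 1 cell line. ChIP-seq for H3K4me3, H3K27ac and H3K27me3 was performed in 3 groups: siControl without TGFβ, siControl with TGFβ at 10 ng/ml for 48 hours (siControl+TGFβ), and siRNA against PHF13, a reader protein that binds H3K4me3, with the same TGFβ treatment (siPHF13+TGFβ). All 3 groups had been transfected with siRNA, and no group combined PHF13 depletion with the absence of TGFβ. Each mark and group had 2 replicates, which gave 18 peak lists, 6 per mark.

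2 features of the lists preceded every comparison. The peak names written inside the lists labelled siPHF13+TGFβ carried the abbreviation NCT, which the study uses for control siRNA with TGFβ, and those inside the lists labelled siControl+TGFβ carried another code. The groups below follow the labels, and no PHF13 transcript level was analysed here. A quality table of the study lists peak numbers equal to those of both siControl+TGFβ replicates and of siPHF13+TGFβ replicate 2 under the same groups as the labels, for each mark. For siPHF13+TGFβ replicate 1, and for the H3K27me3 list of siControl replicate 1, it gives larger peak numbers than the lists analysed here hold. Which of the numbers are right was not tested, and the lengths below are those of the lists analysed. Were the 2 TGFβ-treated groups exchanged, every change for PHF13 depletion would turn its sign and changes for TGFβ would differ: the log2 change of H3K4me3 for TGFβ would be -0.18 in place of 0.33 at MYL9 and 0.26 in place of 1.10 at CALD1. The lists also differed in length. The H3K27ac list of siPHF13+TGFβ replicate 1 held 6004 peaks over 1.89 Mb, against 19413 to 36104 peaks over 11.02 to 31.9 Mb in the other 5, and the lists of this replicate were the shortest for H3K4me3 (27869 peaks against 30770 to 39202) and for H3K27me3 (59573 against 98211 to 165717) as well. The lists hold no read numbers, and read depth was not analysed here. As a check of the cell type, the epithelial keratin genes KRT8, KRT18 and KRT19 carried H3K4me3 in all 6 lists and H3K27ac in 5 or 6, whereas the 6 markers of T cells and other blood cells, endothelium, acinar cells and liver found in the annotation carried neither mark at a TSS in any list.

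The 10 genes encode proteins that give mesenchymal cells their shape, their contractility and their surroundings. VIM is the intermediate filament of mesenchymal cells. ACTA2, TAGLN, TPM1, CNN1, MYL9 and CALD1 belong to the actin and myosin apparatus of smooth muscle and myofibroblasts, and FN1, SPARC and POSTN are secreted into the extracellular matrix. Many of them are known targets of TGFβ signalling during epithelial-mesenchymal transition (EMT). H3K4me3 marks promoters that are active or poised, H3K27ac marks active promoters and enhancers, and H3K27me3 is laid down by Polycomb repressive complex 2 at silenced genes. A promoter that holds H3K4me3 and H3K27me3 together is called bivalent.

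The promoters differed widely in base composition, and 4 of them are shown because they carried the contrasting chromatin described further on: FN1 (H3K4me3 with H3K27me3), VIM (H3K27ac just before the first TSS, H3K4me3 only inside the gene), the downstream promoter of ACTA2 (no mark) and an internal promoter of CALD1 (H3K4me3 with H3K27me3). Each line gives the 250 bases before a TSS in RefSeq, 5′ to 3′ on the strand of the gene (build GRCh38.p14), at chr2:215436069-215436318 (minus), chr10:17227991-17228240 (plus), chr10:88952774-88953023 (minus) and chr7:134891208-134891457 (plus). Matched to the GRCh37 annotation, the FN1 window reaches an exon of the divergent lncRNA FN1-DT and 5 bases of the first FN1 exon. The VIM window lies in an intron of the antisense lncRNA VIM-AS1, the ACTA2 window in introns of longer ACTA2 transcripts and of STAMBPL1, and the CALD1 window in an intron of longer CALD1 transcripts. Capitals mark matches on either strand to the motifs named in the next paragraph.
FN1: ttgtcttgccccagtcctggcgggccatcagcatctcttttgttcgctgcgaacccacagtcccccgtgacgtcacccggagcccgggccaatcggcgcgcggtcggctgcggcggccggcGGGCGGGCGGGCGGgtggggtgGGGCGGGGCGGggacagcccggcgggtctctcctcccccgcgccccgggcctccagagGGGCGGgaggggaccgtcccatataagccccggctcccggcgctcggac
VIM: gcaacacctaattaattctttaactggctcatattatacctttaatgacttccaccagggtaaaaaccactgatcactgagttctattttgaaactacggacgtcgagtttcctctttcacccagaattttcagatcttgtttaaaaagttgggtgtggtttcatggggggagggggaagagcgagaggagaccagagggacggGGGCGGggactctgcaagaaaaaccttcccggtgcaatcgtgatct
ACTA2, downstream promoter: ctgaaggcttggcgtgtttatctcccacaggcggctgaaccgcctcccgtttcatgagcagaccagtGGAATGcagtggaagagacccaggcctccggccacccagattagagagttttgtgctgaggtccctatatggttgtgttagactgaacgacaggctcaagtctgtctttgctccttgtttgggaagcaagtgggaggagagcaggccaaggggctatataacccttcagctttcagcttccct
CALD1, internal promoter: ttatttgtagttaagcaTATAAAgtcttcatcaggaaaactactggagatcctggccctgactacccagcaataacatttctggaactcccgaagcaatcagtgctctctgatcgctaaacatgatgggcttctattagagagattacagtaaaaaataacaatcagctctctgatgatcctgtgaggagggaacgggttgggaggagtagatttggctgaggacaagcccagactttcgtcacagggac

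FN1 had 32 CpG dinucleotides in this window, a GC content of 76.4% and a CpG observed to expected ratio of 0.878, whereas the window of the unmarked gene POSTN had 1 CpG, a GC content of 36.4% and a ratio of 0.121. Between the promoters of ACTA2 the ratio was 0.973 at the upstream one, with 17 CpGs, and 0.331 at the downstream one, with 6. The median of 35116 RefSeq promoters was 58% GC with a ratio of 0.558. The RefSeq promoter of TPM1, which is the second of its promoter regions, resembled that of FN1 (78.4% GC, ratio 0.894), and that of VIM lay near the median ratio (0.613). Those of SPARC (0.340), CNN1 (0.261) and CALD1 (4 promoters, 0.127 to 0.327) lay below it. RefSeq promoters were matched for 8 of the 10 genes (12 promoters), MYL9 and TAGLN being the others. The Sp factor box GGGCGG occurred 6 times in FN1, 2 times in TPM1 and in the upstream ACTA2 promoter, once each in VIM, CNN1 and 1 of the CALD1 promoters, and in 42.6% of all promoters. The TATA box TATAAA occurred 2 times in POSTN, once in the internal CALD1 promoter shown, and in 10.7% of all promoters. The AP-1 site TGANTCA occurred once in POSTN and in another CALD1 promoter, and in 6.57% of all. The TEAD site GGAATG occurred once each in the downstream ACTA2 promoter, in SPARC and in 2 CALD1 promoters, and in 11.9% of all. The SMAD site CAGACA was held by TPM1 and CNN1 and by 13.6% of promoters. The CArG box, the site of serum response factor, was matched exactly in none of the 12 member promoters and in 1.16% of all. Only exact matches to the searched pattern were counted, so a site that differs from it by 1 base would be missed. These matches describe letters in the window only.

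By presence over the 6 lists of each mark, chromatin states split the 10 genes into classes that lay near the shares of all coding genes. H3K4me3 peaks were present in all 6 lists at 7 genes (VIM, FN1, ACTA2, TPM1, CNN1, MYL9 and CALD1) and in no list at TAGLN, SPARC and POSTN. Of all coding genes, 72.7% had H3K4me3 in all 6 lists and 22.1% in none. H3K27ac at a TSS was present in all 6 lists only at VIM, in some lists at ACTA2, TPM1, CNN1, MYL9 and CALD1, and in no list at FN1, TAGLN, SPARC and POSTN, against 20.9%, 43.7% and 35.4% of all coding genes. H3K27me3 was present in all 6 lists at FN1 and CALD1, in 1 or 2 lists at TAGLN, CNN1 and SPARC, and in none at the other 5 genes. Of all coding genes, 21.9% had H3K27me3 in all 6 lists, 25.4% in 1 to 5 and 52.6% in none. POSTN had no peak of any mark in any of the 18 lists, as did 7.66% of coding genes. The number of members with an H3K27ac peak at a TSS was 1 of 10 in the shortest list (siPHF13+TGFβ replicate 1), 2 and 3 in siControl replicates 1 and 2, 5 and 3 in siControl+TGFβ replicates 1 and 2, and 6 in siPHF13+TGFβ replicate 2, whose list was the second longest. Of all coding genes, 21.2%, 50.1% and 57.7%, 63.3% and 57.9%, and 62.4% had such a peak in the same order. The members lay below the share of all coding genes in each list.

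**Figure D1:**
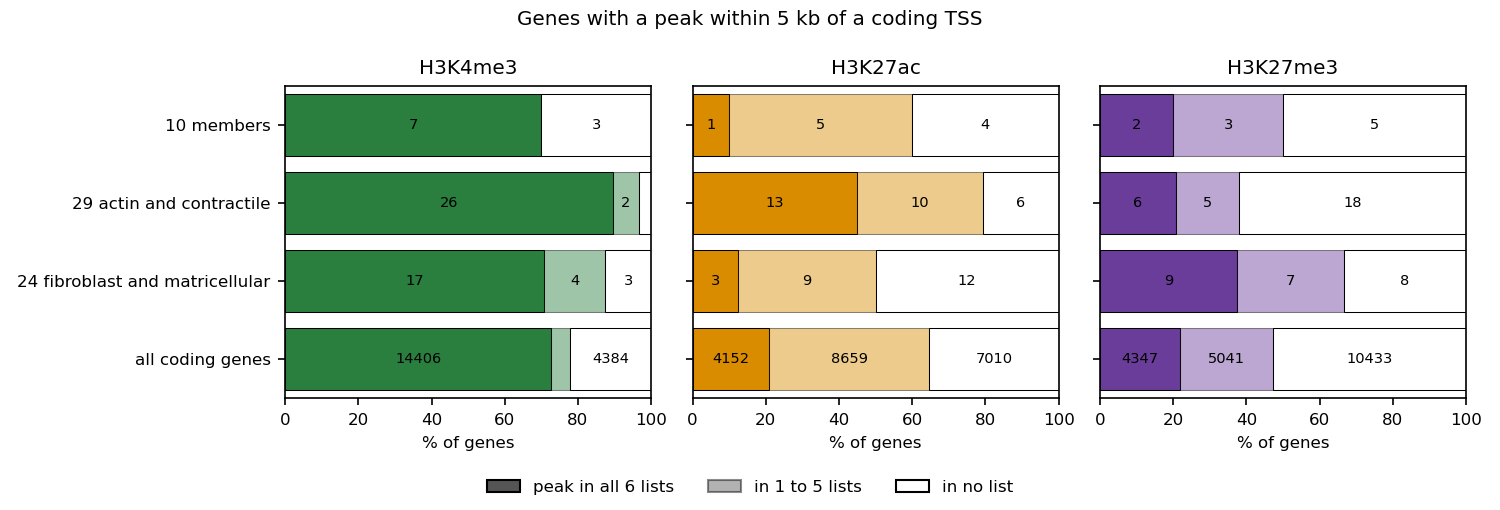
Share of genes (percent, horizontal axis) with a peak within 5 kb of a coding TSS in all 6 lists (dark), in 1 to 5 lists (light) or in no list (white), for each mark and for the 10 members, 29 further actin and contractile genes, 24 fibroblast and matricellular genes and all coding genes. Numbers in the bars are gene counts: H3K27ac was in all 6 lists at 1 of 10 members and at 13 of 29 actin and contractile genes.

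VIM was the most consistently acetylated of the members. Its TSSs lie at chr10:17270240-17271277 (hg19, plus strand). H3K27ac covered 1330 and 1794 bp without TGFβ, 3175 and 1344 bp with TGFβ, and 202 and 2910 bp in the libraries labelled siPHF13+TGFβ. The groups overlapped, and the lowest value belonged to the short list. The strongest acetylated peak stood 2.82 and 3.54-fold over input without TGFβ, 2.98-fold in both siControl+TGFβ libraries, and 3.29 and 2.62-fold with siPHF13 and TGFβ, so the short list had not the lowest fold. In all 6 lists a peak lay just upstream of the first TSS, within chr10:17268974-17270419, where no list held H3K4me3. H3K4me3 lay instead inside the gene, downstream of the last TSS, and covered 1560 and 2837 bp without TGFβ, 2503 and 1421 bp with TGFβ, and 1106 and 2632 bp with siPHF13 and TGFβ. It was weak: the strongest H3K4me3 peak of VIM stood 2.21 to 2.98-fold over input and ranked at or above only 3.33% to 6.99% of the genes that had an H3K4me3 peak in the same list. Overlap of H3K4me3 with H3K27ac ranged from 0 bp (siControl replicate 1 and siPHF13+TGFβ replicate 1) to 1270 bp. No list held H3K27me3 at VIM. The same presence pattern over the 18 lists occurred at 3303 other coding genes.

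**Figure D2:**
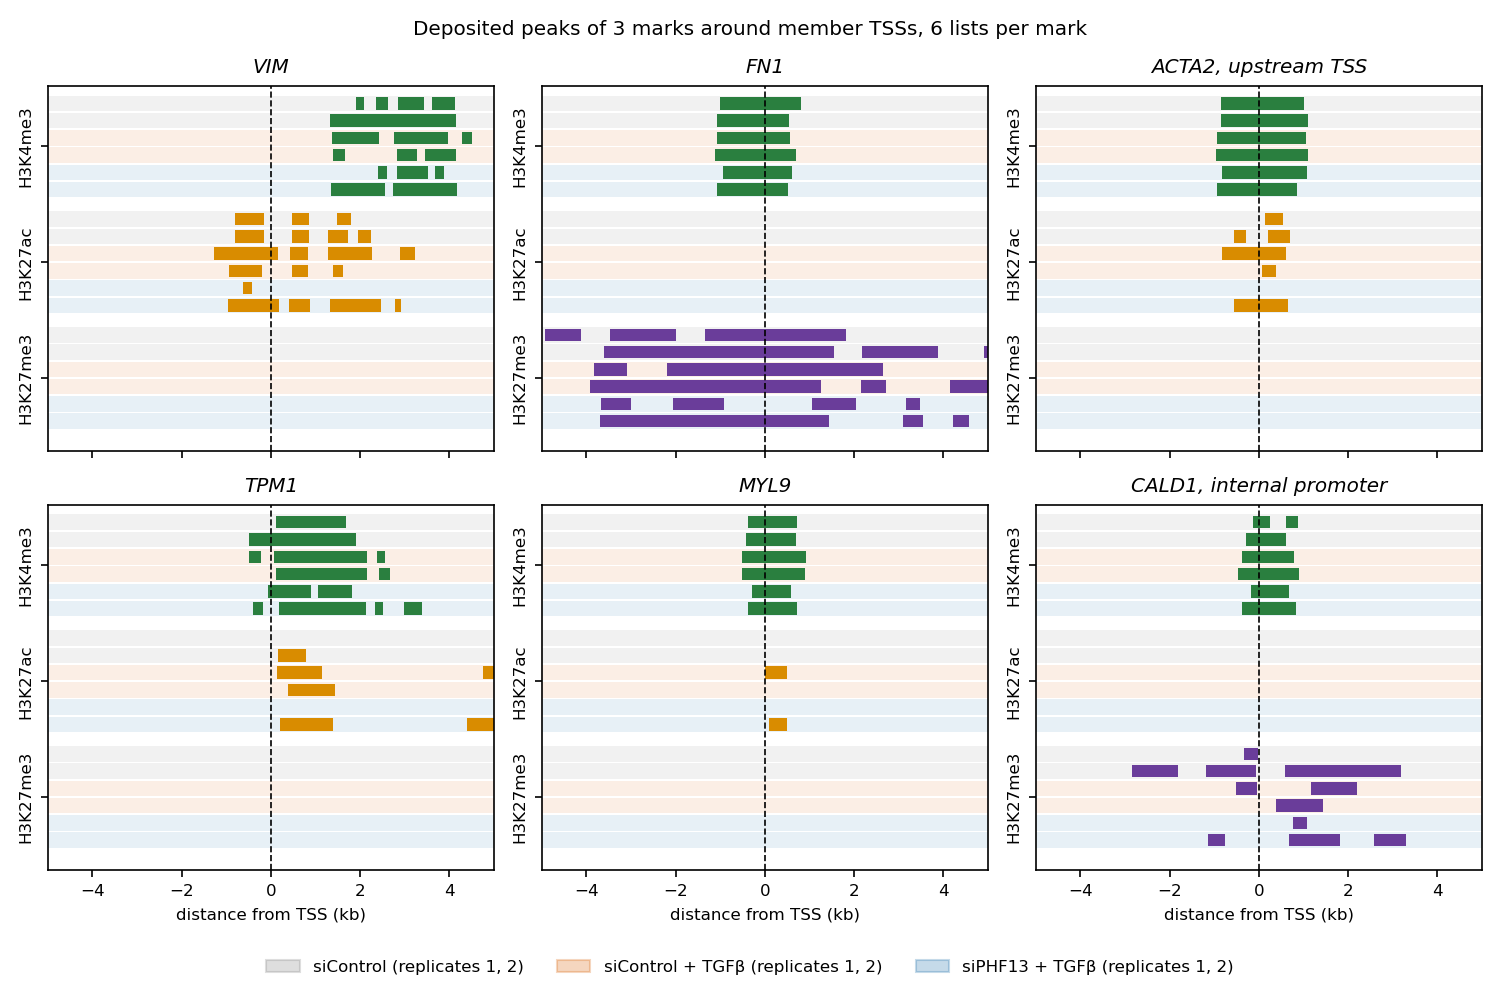
Deposited peaks of H3K4me3 (green), H3K27ac (orange) and H3K27me3 (purple) within 5 kb of a TSS of 6 members, in kb from the TSS with downstream to the right. Each row is 1 list, shaded by group. At VIM the H3K4me3 peaks lay downstream of the H3K27ac peak that precedes the TSS, at FN1 both H3K4me3 and H3K27me3 covered the TSS region, and MYL9 had H3K27ac in 2 of 6 lists.

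FN1, which encodes fibronectin, a major adhesive glycoprotein of the matrix, carried both marks of a bivalent promoter, although separate ChIPs cannot show that they sit on the same molecules. Around its TSSs at chr2:216300790-216300796 (hg19, minus strand), H3K4me3 covered 1820 and 1611 bp without TGFβ, 1632 and 1819 bp with TGFβ, and 1548 and 1589 bp with siPHF13 and TGFβ. The values differed little between libraries. H3K27me3 was summed over all 30009 bp of its windows (5 coding TSSs, internal ones included). It covered 5492 and 8063 bp without TGFβ, 5869 and 6728 bp with TGFβ, and 3109 and 5943 bp with siPHF13 and TGFβ. Within 2.5 kb of the TSSs named above, the values in the same order were 3689 and 4376, 4687 and 4100, and 2122 and 3947 bp. Every base of the H3K4me3 peaks lay inside an H3K27me3 peak in 5 of the 6 pairs of lists. In siPHF13+TGFβ replicate 1 the overlap was 24 bp, where the H3K27me3 peaks of that list flanked the H3K4me3 block on both sides. The strongest H3K27me3 peak of FN1 ranked at or above 77.4% to 98.03% of the peaks of its list. Set against the genes with an H3K27me3 peak instead, it ranged from 48.04% (siControl replicate 1) to 92.8% (siPHF13+TGFβ replicate 1). No H3K27ac peak lay within 50 kb in any list. The full pattern, H3K4me3 and H3K27me3 in all 6 lists and H3K27ac in none, occurred at 7.43% of coding genes.

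The other matrix genes had little chromatin signal. SPARC, a collagen-binding matricellular protein, had H3K27me3 in siControl replicate 2 (1988 bp) and siControl+TGFβ replicate 2 (319 bp) and no H3K4me3 or H3K27ac at a TSS. Its only acetylated region within 50 kb, chr5:151087319-151087652 (hg19), lay 20956.5 bp upstream of the nearest TSS by its centre, and was called in siControl replicate 2 (246 bp), siControl+TGFβ replicate 1 (148 bp) and siPHF13+TGFβ replicate 2 (214 bp), so in 1 library of each group. POSTN, which encodes the matricellular protein periostin, was unmarked throughout.

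ACTA2, the smooth muscle α-actin of myofibroblasts, has a pair of promoters in the annotation, and the marks lay at the upstream one alone. At the downstream TSS (chr10:90712530-90712530, hg19, minus strand), the start of its reference transcript, no mark was called in any of the 18 lists. At the upstream TSSs (chr10:90751089-90751096), H3K4me3 covered 1868 and 1960 bp without TGFβ, 1986 and 2077 bp with TGFβ, and 1903 and 1801 bp with siPHF13 and TGFβ. These values were close together, with the siControl+TGFβ pair above the other 4. For H3K27ac the values in the same order were 405 and 768, 1436 and 312, and 0 and 1210 bp, and the groups overlapped. The upstream TSSs lie 455 bp from a TSS of FAS, a death receptor gene on the other strand, and every H3K4me3 and H3K27ac base within 5 kb counted for ACTA2 counted equally for FAS, so that the signal cannot be assigned to one of them. The strongest H3K4me3 peak there ranked at or above 67.8% to 89.2% of marked genes, the highest range among the members.

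TPM1, a tropomyosin that lies along actin filaments, was marked at both of its promoter regions (chr15:63334831-63335029 and chr15:63340368-63341025, hg19, plus strand). H3K4me3 covered 2689 and 3599 bp without TGFβ, 3620 and 3237 bp with TGFβ, and 1881 and 3103 bp with siPHF13 and TGFβ. Both siPHF13+TGFβ values lay below both siControl+TGFβ values. At the second promoter region, singled out after its values were seen, H3K4me3 values were 1105 and 1208, 1106 and 941, and 160 and 675 bp within 2.5 kb. H3K27ac was absent from siControl replicate 1 and siPHF13+TGFβ replicate 1 and covered 1579 bp in siControl replicate 2, 2467 and 1512 bp with TGFβ, and 2365 bp in siPHF13+TGFβ replicate 2. No H3K27me3 was called at TPM1.

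MYL9, the regulatory light chain of smooth muscle myosin, had close H3K4me3 values between replicates of both siControl groups. Around chr20:35169900-35169922 (hg19, plus strand), H3K4me3 covered 1097 and 1137 bp without TGFβ (1117 ± 28.3 bp, mean ± SD, n = 2), 1438 and 1421 bp with TGFβ (1429.5 ± 12.02 bp), and 871 and 1092 bp with siPHF13 and TGFβ (981.5 ± 156 bp). The siControl+TGFβ pair lay above the other 4 libraries. The fold over input of the same peaks gave no such separation: 9.004 and 9.88 without TGFβ, 9.63 and 9.16 with TGFβ, and 8.36 and 11.4 with siPHF13 and TGFβ. H3K27ac was called in siControl+TGFβ replicate 1 (484 bp) and siPHF13+TGFβ replicate 2 (400 bp) only, which were the 2 longest H3K27ac lists.

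CALD1, caldesmon, which binds actin and restrains myosin activity, carried H3K4me3 and H3K27me3 at its promoters. H3K4me3 covered 793 and 1913 bp without TGFβ, 2837 and 2713 bp with TGFβ, and 1026 and 2180 bp with siPHF13 and TGFβ, with both siControl+TGFβ values above the other 4. H3K27me3 over its 61631 bp of windows (11 coding TSSs) came to 5653 and 18188, 7987 and 9614, and 2186 and 15125 bp, so that replicates of 1 group differed by more than the groups. H3K4me3 and H3K27me3 overlapped by 262 to 1193 bp in 5 of 6 pairs of lists and by 0 bp in siPHF13+TGFβ replicate 1. H3K27ac was called only in siPHF13+TGFβ replicate 2 (157 bp).

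CNN1, calponin, an actin-binding inhibitor of contraction, had H3K4me3 upstream of its first TSS in all 6 lists, centred at -2835 to -2602.5 bp, and at an internal TSS (chr19:11650709-11650709, hg19) in all lists but siPHF13+TGFβ replicate 1. The mark covered 595 and 1396 bp without TGFβ, 1390 and 1525 bp with TGFβ, and 568 and 1475 bp with siPHF13 and TGFβ, and the groups overlapped. H3K27ac was called in siControl+TGFβ replicate 1 (217 bp) and siPHF13+TGFβ replicate 2 (420 bp), and H3K27me3 in siControl replicate 2 (981 bp) and siControl+TGFβ replicate 2 (445 bp). TAGLN, transgelin, an actin cross-linking protein and early smooth muscle marker, had a single peak near its TSSs, H3K27me3 over 150 bp in siControl replicate 2. The 2 acetylated regions within 50 kb of TAGLN lay at the TSSs of its neighbours SIDT2 and PCSK7.

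**Figure D3:**
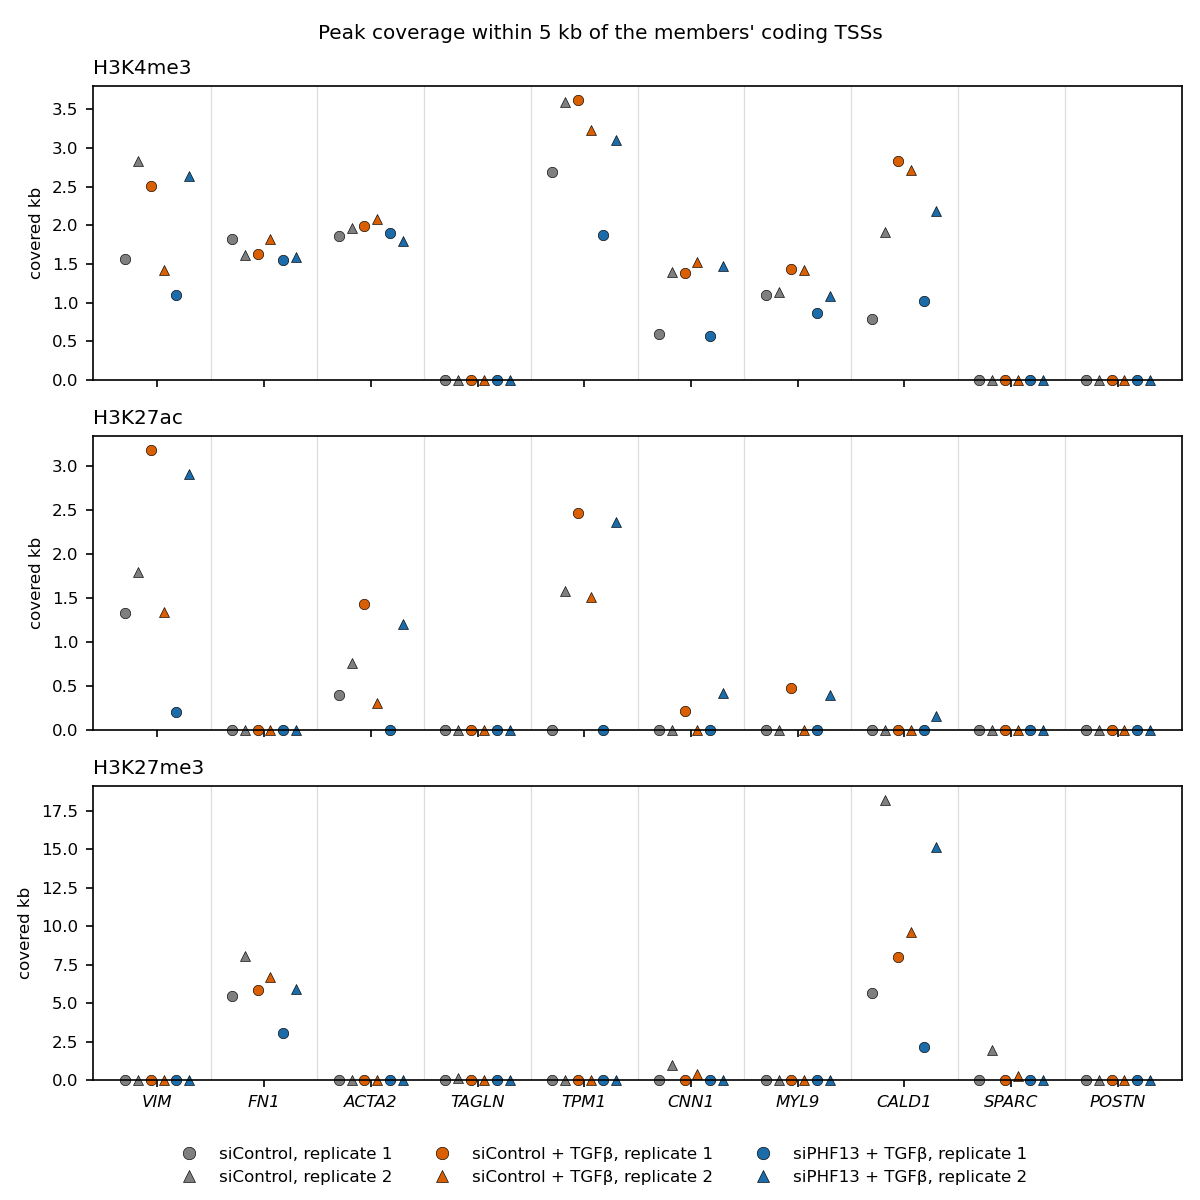
Base pairs in peaks (kb, vertical axis) within 5 kb of the coding TSSs of each member, 1 panel per mark, with 1 point per library (circle replicate 1, triangle replicate 2, colour by group). H3K4me3 at MYL9 and CALD1 was higher in both siControl+TGFβ libraries than in the other 4, and the H3K27ac values of siPHF13+TGFβ replicate 1 were 0 except at VIM (202 bp).

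Between 5 and 50 kb from a TSS and over 5 kb from every coding TSS, H3K27ac was found near VIM, ACTA2, TPM1, SPARC and CALD1. The other 5 genes had none by this count. Regions within 5 kb of a TSS of another coding gene were not counted, and those 5 to 50 kb from CNN1, MYL9 and TAGLN were all of this kind. FN1 and POSTN had no H3K27ac region within 50 kb. Distal coverage at VIM was 2001 and 3365 bp without TGFβ, 5018 and 4277 bp with TGFβ, and 481 and 5058 bp with siPHF13 and TGFβ. Most of it came from 1 region, chr10:17256431-17259416 (hg19), centred 12316.5 bp upstream of the gene, which was called in all lists but the short one, over 1456 and 2392 bp without TGFβ, 2641 and 2943 bp with TGFβ, and 2627 bp in siPHF13+TGFβ replicate 2. At ACTA2, distal coverage was 377 and 1135 bp, 2442 and 726 bp, and 0 and 1379 bp. TPM1 was the member with distal acetylation in both TGFβ-treated control libraries (857 and 364 bp) and in neither siControl library. siPHF13+TGFβ replicate 2 had 420 bp there and the short list none.

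The TPM1 signal came from 2 neighbouring regions, chr15:63307535-63307997, called in both siControl+TGFβ libraries (463 and 152 bp), and chr15:63308123-63308582, called in both (394 and 212 bp) and in siPHF13+TGFβ replicate 2 (420 bp). Their centres lay 27065 and 26478.5 bp upstream of TPM1, the nearest coding gene. The peaks were of low to middle rank in their lists, from 1.59% to 49.6%, and no list held H3K4me3 or H3K27me3 there. The central 300 bases of the second TPM1 region (chr15:63308203-63308502) and of the VIM region (chr10:17257774-17258073) are shown, the former as the one called in 3 lists and the latter as the broadest distal region of VIM (GRCh37, plus strand, the first outside annotated genes and the second in an intron of VIM-AS1). Capitals mark the TEAD site GGAATG, read on the other strand.
TPM1 region: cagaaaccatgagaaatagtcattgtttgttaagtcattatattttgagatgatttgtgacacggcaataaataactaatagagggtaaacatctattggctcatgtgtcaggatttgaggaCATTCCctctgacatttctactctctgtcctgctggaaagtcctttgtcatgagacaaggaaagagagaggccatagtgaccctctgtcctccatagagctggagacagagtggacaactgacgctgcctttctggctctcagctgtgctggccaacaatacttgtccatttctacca
VIM region: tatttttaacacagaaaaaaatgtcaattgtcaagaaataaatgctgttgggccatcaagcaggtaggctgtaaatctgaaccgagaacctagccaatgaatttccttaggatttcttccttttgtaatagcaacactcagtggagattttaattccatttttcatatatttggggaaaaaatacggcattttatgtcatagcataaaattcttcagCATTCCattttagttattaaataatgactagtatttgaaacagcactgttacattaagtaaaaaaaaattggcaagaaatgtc
Each held 1 match to the TEAD site and none to the other motifs named above, and the central 300 bases of the first TPM1 region held no match to any of them. The TEAD site was found in 19.5% of the central 300 bases of 14822 distal H3K27ac regions.

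**Figure D4:**
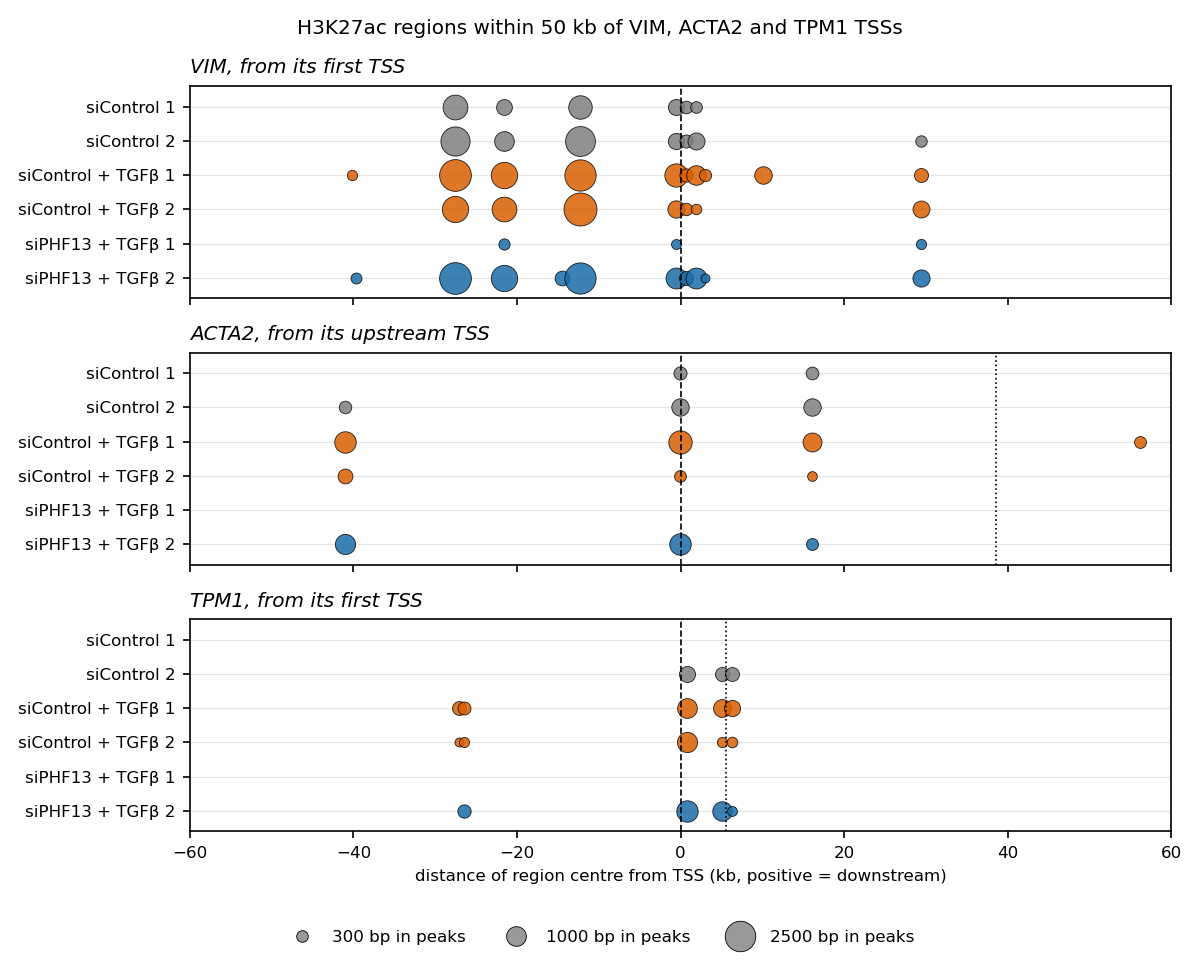
H3K27ac regions within 50 kb of VIM, ACTA2 and TPM1, placed by the distance of their centre from a TSS (kb, dashed line, other promoter regions dotted), with 1 row per library and point area growing with the base pairs in peaks. The 2 regions about 27 kb upstream of TPM1 appear in both siControl+TGFβ libraries and in neither siControl library, and the row of siPHF13+TGFβ replicate 1 is nearly empty.

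The first comparison, siControl+TGFβ against siControl, asks how these marks differ after EMT induction. No member passed the test for any mark. The 7 members with H3K4me3 had limma adjusted p values from 0.874 to 0.985, against 0.125% of all 15192 genes tested that were called higher and 0% called lower. Only MYL9 of the members had an unadjusted p under the threshold (0.0489, log2 change 0.33 ± 0.12 SE, adjusted p = 0.874). At that threshold 479 of the 15192 genes tested were higher and 4 lower. CALD1 had the largest log2 change, 1.10 ± 0.52 (adjusted p = 0.874), followed by CNN1 at 0.61 ± 0.56, and VIM had the lowest at -0.15 ± 0.55. Single siControl libraries moved these values: without siControl replicate 1 the changes were 0.51 at CALD1, 0.06 at CNN1 and -0.56 at VIM, and without siControl replicate 2 they were 1.69, 1.16 and 0.26. VIM also turned to 0.24 without siControl+TGFβ replicate 2, while MYL9 stayed between 0.31 and 0.35 with any 1 library left out. Covered bp was higher in both siControl+TGFβ libraries than in both siControl libraries at 3 members (ACTA2, MYL9 and CALD1) and lower at none, while 47.3% of the genes tested were higher in this sense and 2.09% lower. The share of members did not exceed that of all genes. By the rank of the strongest peak instead, FN1 and ACTA2 were higher (23.2% of genes) and VIM was lower (11.7%), so MYL9 and CALD1 were not separated by rank. The median log2 change over all 10 members was 0.05, that of the genes tested 0.12. Relative to the latter, CALD1 stood at 0.98, MYL9 at 0.21 and CNN1 at 0.49, whereas ACTA2 (-0.04) and FN1 (-0.11) fell on the other side of 0.

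For H3K27ac at TSSs, none of the 5 members tested was called (limma adjusted p = 0.987 each), nor was any of 12296 genes (0% in both directions, 88 genes higher and 0 lower at an unadjusted p under 0.05). The log2 changes were 2.31 ± 1.51 SE at TPM1, 1.27 at MYL9, 0.83 at CNN1, 0.40 at VIM and 0.26 at ACTA2, beside a median of 0.59 over the genes tested. TPM1 ranged from 0.28 without siControl replicate 1 to 4.35 without siControl replicate 2, and without siControl+TGFβ replicate 1 the changes were 0 at MYL9 and CNN1, -0.19 at VIM and -0.68 at ACTA2. No member was higher in both libraries, against 55.5% of the genes tested, and none was lower, against 0.0569%. Single libraries moved this count: without siControl+TGFβ replicate 2 all 5 were higher in the remaining library, and without siControl+TGFβ replicate 1 none was higher and ACTA2 was lower. Of all genes tested, 97.97% and 55.7% were higher with the same libraries left out, and 0.0895% and 6.51% were lower. By rank, ACTA2 (16.8% and 1.95% without TGFβ, 47.5% and 54.2% in siControl+TGFβ) and TPM1 (0 and 31.3%, 59.7% and 62.5%) were higher in both libraries, as were 39.9% of genes. For H3K27me3, 4 members were tested and none called (limma adjusted p = 1, 31 of 8171 genes higher and 127 lower at an unadjusted p under 0.05, 0% called in both directions). Their log2 changes were -0.08 at FN1, -0.21 at CALD1, -0.49 at CNN1 and -1.16 at SPARC, all smaller than their standard errors (0.82 to 1.61), and the groups overlapped at each. All 4 directions turned with the siControl library left out: without replicate 1 the changes were -0.35, -1.04, -2.21 and -3.35 in the same order, and without replicate 2 they were 0.19, 0.62, 1.22 and 1.03, while 72.5% of the genes tested were lower in the first case and 64.0% higher in the second. Without siControl+TGFβ replicate 1, FN1 (0.02) and CNN1 (0.73) turned as well. Of the genes tested, 6.45% were higher and 7.26% lower in both libraries. By rank no member was separated, beside 9.71% of genes higher and 15.3% lower. For distal H3K27ac, VIM and TPM1 were higher in both libraries, beside 52.1% of 7256 genes tested (0.303% lower). Their log2 changes were 0.81 ± 1.68 and 2.74 ± 1.66 (limma adjusted p = 0.959 each), and the median of the genes tested was 1.037. ACTA2, with a log2 change of 0.92 ± 1.70 (limma adjusted p = 0.959), and SPARC, with -0.24 ± 1.67 (limma adjusted p = 0.971), overlapped between the groups, and SPARC turned sign without siControl+TGFβ replicate 2 (0.41) or siControl replicate 2 (0.66). 0% of genes were called in either direction by limma, with 202 higher and 0 lower at an unadjusted p under 0.05.

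**Figure D5:**
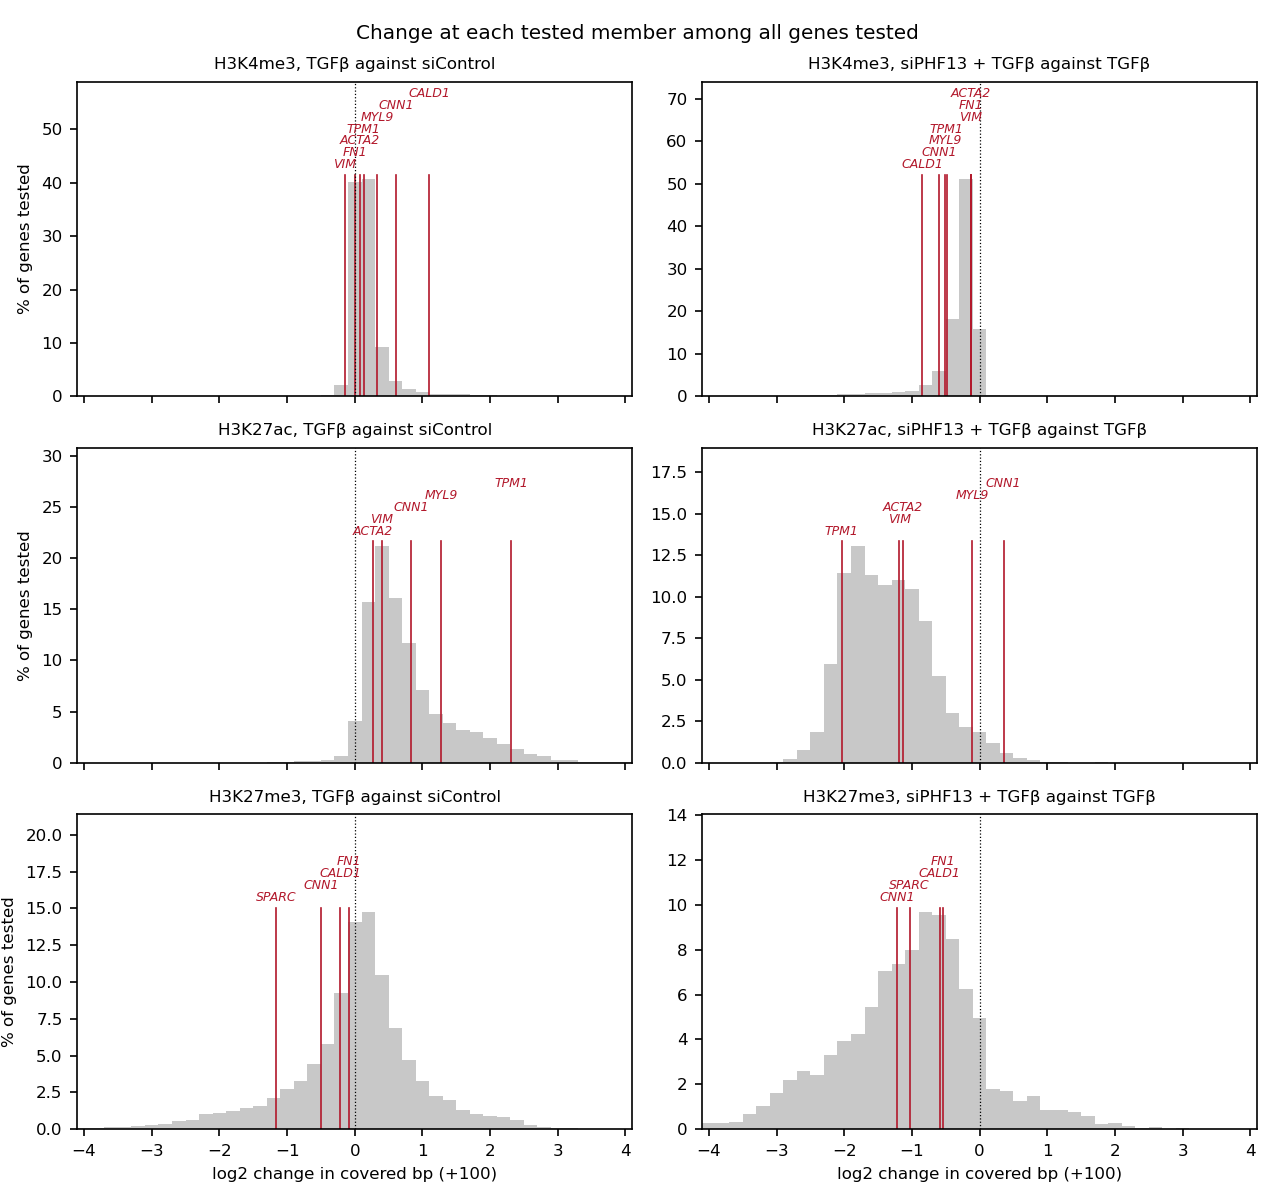
Distribution of the log2 change in covered bp (100 bp added) at TSSs over all genes tested (grey, percent of genes) for each mark and comparison, with tested members as red lines. The bulk of the distribution for H3K4me3 and H3K27ac lies above 0 for TGFβ and below 0 for PHF13 depletion, and most members lie within it.

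The second comparison, siPHF13+TGFβ against siControl+TGFβ, asks what PHF13 depletion does to the marks under TGFβ. It shares the siControl+TGFβ libraries with the first, so that values high in these lists enter both with opposite signs. No member was called for H3K4me3 (limma adjusted p from 0.409 to 0.849, beside 0.145% of genes called lower and 0.00658% higher). MYL9 again had the only unadjusted p under the threshold among the members (0.0113, log2 change -0.51 ± 0.12 SE, adjusted p = 0.409). At that threshold 1399 of the 15192 genes tested were lower and 2 higher. CALD1 stood at -0.84 ± 0.52, CNN1 at -0.60 ± 0.56 and TPM1 at -0.48 ± 0.28, and ACTA2, FN1 and VIM at -0.13 each. Both libraries were lower at 5 of the 7 members (FN1, ACTA2, TPM1, MYL9 and CALD1), and at 61.7% of all genes tested. None was higher, against 0.296%. The median of the genes tested was -0.22, and relative to it ACTA2, FN1 and VIM stood at 0.09 each, TPM1 at -0.27, MYL9 at -0.29, CNN1 at -0.38 and CALD1 at -0.62. With each library centred on its median, MYL9 and CALD1 were lower in both libraries and the other 3 overlapped, while 18.4% of the genes tested were lower. By rank, ACTA2 and CNN1 were lower, against 33.9% of genes, and 7.76% of genes were higher.

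Without siPHF13+TGFβ replicate 1, whose H3K4me3 list was the shortest, the same 5 members were lower in the remaining library and VIM was higher. Of the genes tested, 63.0% were lower and 10.4% higher. The log2 changes of the 5 were -0.36 at MYL9, -0.33 at CALD1, -0.16 at ACTA2, -0.14 at TPM1 and -0.11 at FN1. CNN1 then stood at 0.02 and VIM at 0.46, both with their sign turned, beside a median of -0.09 over the genes tested.

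For H3K27ac the direction at VIM, ACTA2, TPM1 and MYL9 turned with 1 library. None of the 5 members tested was called (limma adjusted p from 0.696 to 0.961), 0% of genes were called in either direction (0 higher and 4 lower at an unadjusted p under 0.05), and no member was lower or higher in both libraries, against 10.4% and 0.0163% of genes. The log2 changes were -1.19 at VIM, -1.14 at ACTA2, -2.03 at TPM1, -0.11 at MYL9 and 0.36 at CNN1, each with a standard error of 1.51, beside a median of -1.40 over the genes tested. Without siPHF13+TGFβ replicate 1 they were 0.47, 0.72, 0.28, 1.049 and 1.55 in the same order, beside a median of 0.15. MYL9 (1.16) also turned without siControl+TGFβ replicate 1, and CNN1 turned without siPHF13+TGFβ replicate 2 (-0.83) or siControl+TGFβ replicate 2 (-0.48). ACTA2 and TPM1 had no peak in that short list, and neither had 63.2% of the 11411 genes with a peak in both siControl+TGFβ lists. By rank, VIM and ACTA2 were lower in both libraries, as were 20.9% of genes, and 0.39% of genes were higher.

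The 4 members tested for H3K27me3 had log2 changes of -0.54 (FN1), -0.59 (CALD1), -1.03 (SPARC) and -1.22 (CNN1), beside a median of -0.92 over the genes tested, with limma adjusted p from 0.828 to 0.856 and 0% of genes called in either direction (10 higher and 180 lower at an unadjusted p under 0.05). No member was lower in both libraries, against 29.4% of genes, or higher, against 1.2%, and by rank none was lower (26.2% of genes) or higher (4.91%). Without siPHF13+TGFβ replicate 1 the change at FN1 was -0.08 and at CALD1 0.78, beside a median of 0 over the genes tested. CNN1 and SPARC rested on siControl+TGFβ replicate 2: without it both changes were 0, and without siControl+TGFβ replicate 1 they were -2.45 and -2.07. The log2 change of distal H3K27ac was -1.45 at VIM, -1.91 at ACTA2 and -1.55 at TPM1 (limma adjusted p = 0.867 each) and 0.17 at SPARC (limma adjusted p = 0.9999), with standard errors of 1.66 to 1.70 and a median of -1.30 over the genes tested (0% of genes called in either direction, 0 higher and 3 lower at an unadjusted p under 0.05). Without siPHF13+TGFβ replicate 1 it was 0.12 at VIM, 0.03 at ACTA2, -0.36 at TPM1 and 0.996 at SPARC, beside a median of 0.31. No member was lower or higher in both libraries, against 9.07% and 0.138% of genes.

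2 wider gene lists place the members among related genes. Of 29 further actin and contractile genes, 26 had H3K4me3 and 13 had H3K27ac in all 6 lists. The broadest acetylation was at ACTN4 and ACTN1, which encode actin-bundling α-actinins, ACTB, cytoplasmic β-actin, and FLNA, the actin cross-linker filamin A, with means over the 6 lists of 3866, 3662.5, 3318 and 2800 bp. Smooth muscle genes of this list differed among themselves. LMOD1, MYH11, DES and MYOCD had H3K27me3 in all 6 lists and H3K27ac in none, ACTG2 had H3K27me3 in 1 and H3K27ac in none, MYLK had H3K27me3 in 3 and H3K27ac in 2, and SMTN had H3K27me3 in 1 and H3K27ac in 4. None of the 26, 23 and 9 genes tested for H3K4me3, H3K27ac and H3K27me3 was called by limma in either comparison, with median H3K4me3 changes of 0.19 (TGFβ) and -0.29 (PHF13 depletion). Of 24 fibroblast and matricellular genes, 17 had H3K4me3 and 3 had H3K27ac in all 6 lists, 12 had H3K27ac in none, and 9 had H3K27me3 in all. The most acetylated were CCN1, a matricellular TGFβ and YAP target, S100A6, a calcium-binding protein, and TGFBI, a TGFβ-induced matrix protein, with means of 3774, 2459 and 1836 bp. None was called by limma for any mark or comparison (median H3K4me3 changes 0.21 and -0.28). For both lists distal H3K27ac had no call either. PHF13 itself had H3K4me3 in all 6 lists (2205 to 3084 bp) and H3K27ac in all but the short one, in windows shared with KLHL21, whose TSS lies 829 bp away.

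The genes most like each partly acetylated member, by the Euclidean distance of log2 covered bp over the 18 lists, were as follows. For ACTA2 they were FAS, at a distance of 0 because the peaks are shared, and LYAR at 0.44. For TPM1 they were UPRT (0.81) and SLC35F3 (0.88), for MYL9 THEMIS2 (0.38) and CD160 (0.41), for CNN1 SNPH (2.06) and KIAA0319 (2.22), and for CALD1 SPTB and COL4A2 (1.86 each). CNN1 had the rarest presence pattern of the members, shared with 6 other coding genes, and ACTA2 the commonest, shared with 4054.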

How the data were processed

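ChIP-seq peak lists from 18 PANC-1 libraries were analysed. 6 input samples were not used. The members and gene lists were chosen with earlier results of these data known.

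Per the methods of the study and the labels, the authors trimmed reads with Trim Galore 0.4.1, aligned them to hg19 with Bowtie2 2.4.1, removed duplicates with Picard and called peaks per library against input with MACS2 2.2.7.1, narrow for H3K4me3 and H3K27ac and broad for H3K27me3. The authors deposited for each peak a score, a fold enrichment (a ratio to input), and −log10 p and −log10 q values, and for narrow peaks a summit offset. The deposited lists reached down to −log10 q of 1.30 (narrow) and 1.00 (broad). For narrow peaks this is weaker than the cutoff in the methods, which corresponds to −log10 q of 3, so that a peak here need not meet that cutoff, and a minimum of 3 was tried as an alternative. Read counts and depth were not analysed here, so that the part of depth in the length of a list was not tested, and the count model the study ran on reads could not be used.

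Base pairs in peaks were summed per gene within 5 kb of coding TSSs (GENCODE v44 lifted to GRCh37, on which all peaks of 24 chromosomes lay inside the sequence), and for H3K27ac also from 5 to 50 kb outside every such window. Rank is the percent of peaks in a list with a −log10 q at or below that of the peak. log2(bp + 100) of genes with a peak in at least 2 of 6 lists was tested with limma 3.58.1 (R 4.3.3), the 3 groups in one fit, with Benjamini-Hochberg adjustment over all genes tested and a threshold of 0.05. A gene was higher or lower in both libraries when the 2 groups of 2 did not overlap. An exact permutation test of 2 against 2 libraries cannot give a two-sided p below 0.333. Nothing in the labels says that replicates came from separate cultures, so p values measure the spread between these libraries. Scripts were tested on simulated data. Python 3.11.15 and NumPy 2.4.6 were used. Genes named beyond the members were PHF13, coding genes with a TSS within 5 kb, up to 4 genes per list (called, or those with the largest mean H3K27ac coverage, of which 1 is not reported here), and the 2 genes nearest to each partly acetylated member over the 18 lists. The smooth muscle genes of the first list were named after their values were seen. Alternatives were other windows, TSS sets, peak thresholds, list lengths, pseudocounts, filters, centring, fits and libraries left out.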

Additional observations from a re-analysis of the deposited data

How the results depend on the processing

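No member was called in either comparison with the main settings used for the results above. For the alternatives, numbers of genes called are given, and calls of single members are not. Read depth was not analysed here, and its part in the length of the lists was not tested. Of 376 alternative values, 304 kept to the value reported, within 1.5 times for counts and within 1 SD between replicates for medians.

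Genes called for H3K4me3 numbered 19 (TGFβ) and 23 (PHF13 depletion). They became 121 and 182 with the 50% strongest peaks, 4 and 4 with lists of equal length, 0 and 0 with a pseudocount of 500, with a peak required in 4 lists, and with a replicate block, 9 and 12 with libraries centred, and 3 with only the 4 libraries of the TGFβ comparison. Without a replicate they ranged from 0 to 0 and from 0 to 5. No gene was called for the other marks, with these exceptions: distal H3K27ac for TGFβ gave 80 calls with lists of equal length, and for PHF13 depletion the calls ranged from 0 to 9456 (H3K27ac at TSSs) and from 0 to 2900 (distal) without a replicate. The highest values came without siPHF13+TGFβ replicate 2, which left the short list as the lone library of its group, assumed to vary like the others.

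The median change of the members with libraries centred was -0.073 for H3K4me3 and TGFβ (0.05 as reported) and 0.082 for PHF13 depletion (-0.13), -0.24 for H3K27ac and TGFβ (0.13), 0.85 for H3K27me3 and PHF13 depletion (0), and for distal H3K27ac -0.63 and 1.23 (both 0). For H3K27ac at TSSs and PHF13 depletion it was 1.03 (0), which counted as kept because the SD between replicates was 1.07. Centring gives an absent peak a value that depends on its library. With the 50% strongest peaks the H3K4me3 median for PHF13 depletion was 0. Without a replicate, the median ranged from 0.024 to 0.19 and from -0.40 to -0.055 for H3K4me3, and from 0 to 0.50 for H3K27ac and TGFβ. For H3K27ac and PHF13 depletion it ranged from -0.42 to 0.37.

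The counts that follow are over all 10 members, also those not tested, and shares of the genes tested are given for centring, rank and libraries left out only. Counts at the other settings have no such share beside them, so they cannot show anything particular to the members. Members lower in both libraries for H3K4me3 and PHF13 depletion numbered 5, and 3 at the 5 prime end only and with the 50% strongest peaks. They numbered 2 with centring (18.4% of genes) and 2 by rank (33.9%). For TGFβ, 1 member was lower with the 50% strongest peaks, with equal lists and by rank (0 as reported, 11.7% of genes by rank). For H3K27ac and TGFβ, members higher numbered 0, and 1 at the 5 prime end only and with the 50% strongest peaks, and 2 by rank (39.9% of genes). For H3K27ac and PHF13 depletion, 2 were higher with centring (1 of the tested members, 6.63% of genes) and 2 lower by rank (20.9%). For H3K27me3 and TGFβ, 1 was higher with the 50% strongest peaks and with equal lists, and 2 were lower with centring (1 of the tested members, 16.5% of genes). For H3K27me3 and PHF13 depletion, 1 was lower with windows of 2.5 kb, with the 50% strongest peaks and with equal lists. Without a replicate, members higher ranged from 4 to 5 (TGFβ) and 0 to 1 (PHF13 depletion) for H3K4me3, 0 to 5 and 0 to 2 for H3K27ac, and 0 to 2 and 0 to 1 for H3K27me3. Of the genes tested, 55.5% to 75.8% and 0.862% to 10.4% were higher for H3K4me3, and 55.7% to 97.97% and 0.0163% to 29.3% for H3K27ac. For H3K27me3 the shares were 6.90% to 64.0% and 2.08% to 30.2%. Members lower ranged from 0 to 1 (TGFβ) and 5 to 7 (PHF13 depletion) for H3K4me3. They ranged from 0 to 1 and 0 to 4 for H3K27ac, and from 0 to 5 and 0 to 3 for H3K27me3. Beside these, 4.75% to 13.03% (TGFβ) and 63.03% to 94.7% (PHF13 depletion) of the genes tested were lower for H3K4me3. The shares lower were 0.0895% to 6.51% and 10.4% to 92.8% for H3K27ac, and 8.22% to 72.5% and 29.98% to 77.1% for H3K27me3. The cause of these shifts was not tested.

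Samples of different groups shared only a replicate number: deviations from the group means correlated at -0.42 between siControl and siControl+TGFβ for H3K4me3, at -0.28 between siControl+TGFβ and siPHF13+TGFβ, and at 0.51 between siControl and siPHF13+TGFβ. The replicate block left 0 calls for every mark and comparison. With the labels of the TGFβ-treated groups exchanged, also chosen after seeing the data, the median was 0.13 for H3K4me3 and PHF13 depletion (-0.13 as reported) and -0.31 for H3K27me3 and TGFβ (-0.04). Windows restricted to basic transcripts, chosen after seeing the data, moved no count or median beyond these limits. No outlier test applies to groups of 2.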
